A study of Homo sapiens with 12 samples.

Results

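The BCL2 family decides at the outer mitochondrial membrane whether a cell starts apoptosis, and the transcripts of 10 of its genes were measured here by RNA-seq in A375, an established human melanoma line. The members were chosen by name for their roles as survival genes (BCL2, BCL2L1, MCL1 and BCL2A1) and as death genes of the BH3-only kind (BBC3, PMAIP1, BCL2L11, BIK, BMF and BID). All 10 were found among the 20263 genes of the table. The cells carried no engineered genotype (labelled WT) and formed 4 groups of 3 libraries: Ctrl, treated with neither agent; DdBIC (written DBIC in the labels), a small molecule that the study directs at the nuclear receptor Nur77; Hemin, treated with hemin, an iron-containing form of heme that cells take up; and DdBIC+Hemin, treated with both. Neither the doses nor the times of the sequenced treatments are given in the sources used here, and the model is a single tumour cell line. From these data the paper reports how DdBIC, and hemin added to it, affected gene sets of the integrated stress response and of its kinase PERK.

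Survival proteins of this family hold back the pore formers BAX and BAK, and BH3-only proteins bind the survival proteins and release that hold. The pairings are selective: the PMAIP1 product (NOXA) binds mainly MCL1, whereas the products of BBC3 (PUMA), BCL2L11 (BIM) and BID bind survival proteins broadly. MCL1 protein and its mRNA are both short-lived, and in melanoma MCL1, BCL2L1 and BCL2A1 are known survival factors.

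Each library held 37951275 to 44358912 counts. The hemin labels were checked on HMOX1, the heme-degrading enzyme that cells raise when given hemin. It stood at 7.26 to 9.19 CPM (counts scaled by TMM to a common library size) in the 6 libraries without hemin. HMOX1 was at 61.9 to 65.5 CPM with hemin and at 146 to 188 CPM with both agents. Ctrl and DdBIC overlapped in HMOX1, so it cannot check which of the libraries without hemin received DdBIC. Of the 8 melanoma lineage markers examined, SOX10 was high (548 to 770 CPM) and MITF low (8.31 to 21.5 CPM), while MLANA and TYR did not exceed 0.435 and 0.0512 CPM, so the pigment genes of melanocytes were close to absent. Of the immune markers, PTPRC was at 0 counts in every library, CD3E at up to 0.0523 CPM and CD14 at 0.409 to 1.3 CPM. Of the epithelial markers, KRT8 was high (196 to 239 CPM), while EPCAM, KRT5 and CDH1 did not exceed 0.246 CPM. Nothing in the labels says that the 3 libraries of a group came from separate cultures, so the p-values measure the spread between these libraries, which may be technical. As the RNA is bulk, fewer cells carrying a transcript and less of it in each cell cannot be told apart.

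DdBIC raised 1 survival gene and 3 BH3-only genes. MCL1 rose 3.29-fold, PMAIP1 2.67-fold, BIK 2.75-fold and BBC3 2.17-fold over Ctrl, of which the call of BBC3 was lost under 8 of 14 alternatives, and BCL2L1 and BID were called lower under some alternatives only, as given below (edgeR's quasi-likelihood test, Benjamini-Hochberg adjusted p under 0.05 over 14287 genes). With hemin added to DdBIC, MCL1, BBC3 and PMAIP1 fell against DdBIC alone, and BCL2 was called lower by a small amount, a call lost under 10 of 14 alternatives. DdBIC changed 4 of the 9 tested members, against 37.2% of all genes tested, so the share of members called was near the background. DdBIC+Hemin against DdBIC changed 4 of 9, all lower, against 31.9% of all genes in either direction.

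Across genes, levels can be compared only per length, and on the TPM scale (the deposited level scaled by gene length) MCL1 stood at 144.9 ± 8.9 TPM in Ctrl (SD, n = 3), 471.4 ± 49.1 in DdBIC, 128.0 ± 2.0 in Hemin and 143.5 ± 12.4 in DdBIC+Hemin. BCL2L1 stood at 118.8 ± 1.1, 114.0 ± 2.3, 129.2 ± 2.4 and 113.9 ± 5.2 TPM in the same order, so MCL1 was the higher of the pair in 3 groups, and in Hemin their difference was within the spread of the replicates. In Ctrl, PMAIP1 followed at 41.4 TPM, BID at 32.6, BBC3 at 19.8, BCL2 at 6.52, BCL2L11 at 2.46, BMF at 1.66, BIK at 0.602 and BCL2A1 at 0.169. In DdBIC the mean of BBC3 (41.4 ± 17.2 TPM) was above that of BID (28.8 ± 0.7 TPM). Of the survival members, A375 cells thus carried mainly MCL1 and BCL2L1 transcripts, and BIK and BCL2A1 were close to the floor of the measurement. BCL2L2, a survival gene that is not among the members, was not ranked here.

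**Figure D1:**
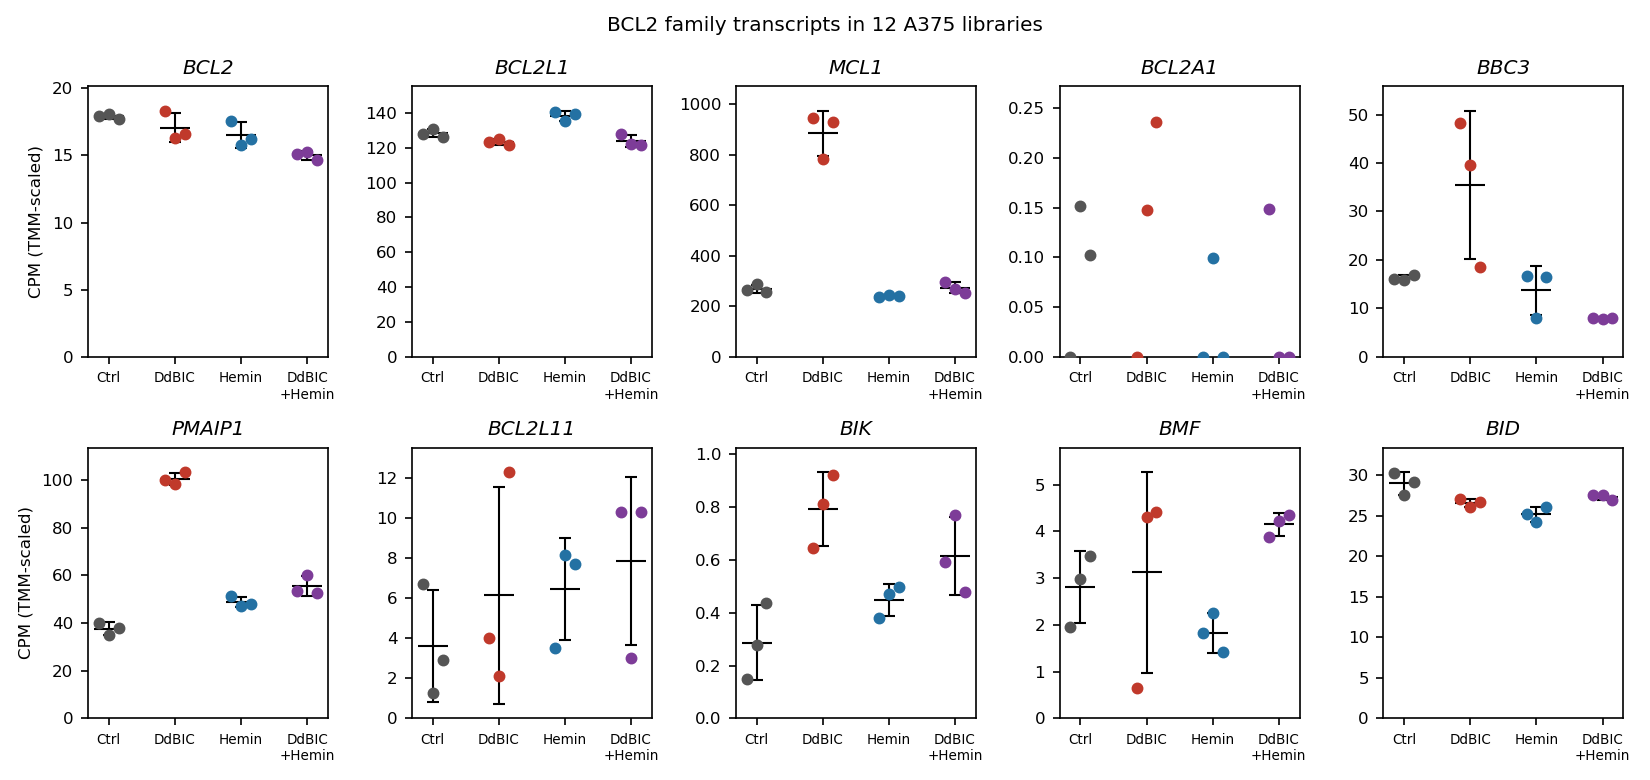
TMM-scaled counts (CPM, vertical axes from 0, a different scale in each panel) of the 10 members in the 12 libraries, as points in replicate order within each group, with the group mean and SD as black bars (not drawn for BCL2A1, which had 0 to 10 counts). The 3 DdBIC libraries lie above all others for MCL1, PMAIP1 and BBC3. BBC3 spreads widely within DdBIC and Hemin, BCL2L11 within every group and BMF most within DdBIC.

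Among the survival genes, MCL1 (ENSG00000143384, chromosome 1, 150574551 to 150579738 on GRCh38, minus strand), an inhibitor of BAK and BAX, showed the response to DdBIC. Its level was 263, 287 and 257 CPM in the Ctrl libraries and 944, 783 and 930 CPM in the DdBIC libraries. It was 236, 245 and 242 CPM with hemin alone and 298, 268 and 254 CPM with both agents. The lowest DdBIC library thus stood at more than any library of the other groups, and the libraries with both agents overlapped Ctrl. The log2 fold change was 1.72 ± 0.08 (SE, n = 3 and 3 libraries, edgeR adjusted p = 7.03e-08) in DdBIC against Ctrl and -1.70 ± 0.08 (edgeR adjusted p = 1.26e-07) in DdBIC+Hemin against DdBIC. Between DdBIC+Hemin and Ctrl the difference was 0.02 on the log2 scale, with a 95% interval of -0.15 to 0.19. Hemin alone gave -0.16 (-0.33 to 0.01), which did not pass the test (edgeR adjusted p = 0.34).

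BCL2L1 (ENSG00000171552, chromosome 20, 31664452 to 31723989), which encodes BCL-XL, passed the test in none of the comparisons tested. DdBIC+Hemin against Hemin was not among them, and its difference of -0.16 is given below with its interval only. It measured 128, 131 and 126 CPM in Ctrl, 123, 125 and 122 CPM in DdBIC, 140, 135 and 140 CPM in Hemin and 128, 122 and 121 CPM in DdBIC+Hemin. Its replicates were among the tightest for genes of like level, with a within-group SD of 0.0292 on the log2 scale that was above only 8.32% of 2958 such genes. Every DdBIC library lay below every Ctrl library, by a small amount. The 95% interval of the DdBIC difference ran from -0.12 to 0.01, so a rise of the size seen for MCL1 lay outside it. The hemin libraries were the highest group, without overlap with Ctrl, at 0.11 on the log2 scale (0.04 to 0.17), which missed the threshold (edgeR adjusted p = 0.0671) and which DESeq2 called (adjusted p = 0.0419). Under upper-quartile scaling BCL2L1 was called lower in DdBIC than in Ctrl (-0.12, adjusted p = 0.0097).

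BCL2 (ENSG00000171791, chromosome 18, 63123346 to 63320128), the founding survival gene, was low and varied little. It stood at 17.9, 18.1 and 17.7 CPM in Ctrl, at 18.3, 16.3 and 16.6 CPM in DdBIC, at 17.6, 15.8 and 16.2 CPM in Hemin and at 15.1, 15.2 and 14.6 CPM in DdBIC+Hemin. The libraries with both agents were below every other library. BCL2 was called lower in them than in DdBIC (log2 fold change -0.19 ± 0.06, edgeR adjusted p = 0.0387) and than in Ctrl (-0.26 ± 0.06, edgeR adjusted p = 0.0196). The first of these calls was lost without DdBIC replicate 1 or 3 or any DdBIC+Hemin library (edgeR adjusted p = 0.0555 to 0.156), and also with DESeq2 (0.0579), upper-quartile scaling (-0.13, 0.136), no filter (0.0548), only the groups compared (0.118) and limma on TPM (0.0939), 10 of 14 alternatives in all. The second was lost without any Ctrl library or DdBIC+Hemin replicate 1 or 3 (0.0508 to 0.06).

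BCL2A1 (ENSG00000140379, chromosome 15, 79960889 to 79971446), a survival gene that melanocyte factors and NF-kB switch on in other melanoma cells, was hardly detected. It had 0, 6 and 4 counts in the Ctrl libraries, 0, 6 and 10 in DdBIC, 0, 4 and 0 in Hemin and 6, 0 and 0 in DdBIC+Hemin. It did not pass the filter on low counts, and only a large change could have been detected at this depth. Without the filter the DdBIC difference was 0.60 ± 1.38 on the log2 scale (edgeR adjusted p = 0.81).

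The make-up of the transcripts of the 4 survival members therefore shifted with DdBIC. MCL1 held 52.3% to 55.5% of the summed TPM of the 4 survival genes in Ctrl, 77.8% to 80.6% in DdBIC, 47.9% to 49.6% in Hemin and 53.7% to 55.6% in DdBIC+Hemin. The sum itself was 265 to 280 TPM in Ctrl, 533 to 623 TPM in DdBIC, 262 to 264 TPM in Hemin and 248 to 283 TPM in DdBIC+Hemin. The summed TPM of the 6 BH3-only genes went from 93.1 to 103 in Ctrl to 177 to 200.5 in DdBIC, and was 95.4 to 109.2 in Hemin and 108.2 to 108.9 in DdBIC+Hemin. The ratio of survival to BH3-only TPM was 2.58 to 3 in Ctrl, 2.83 to 3.50 in DdBIC, 2.42 to 2.74 in Hemin and 2.29 to 2.61 in DdBIC+Hemin. Both sums were higher in DdBIC than in the other groups, and the ratio of Ctrl overlapped that of DdBIC. These sums are descriptions, and TPM values share 1 total per library.

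**Figure D2:**
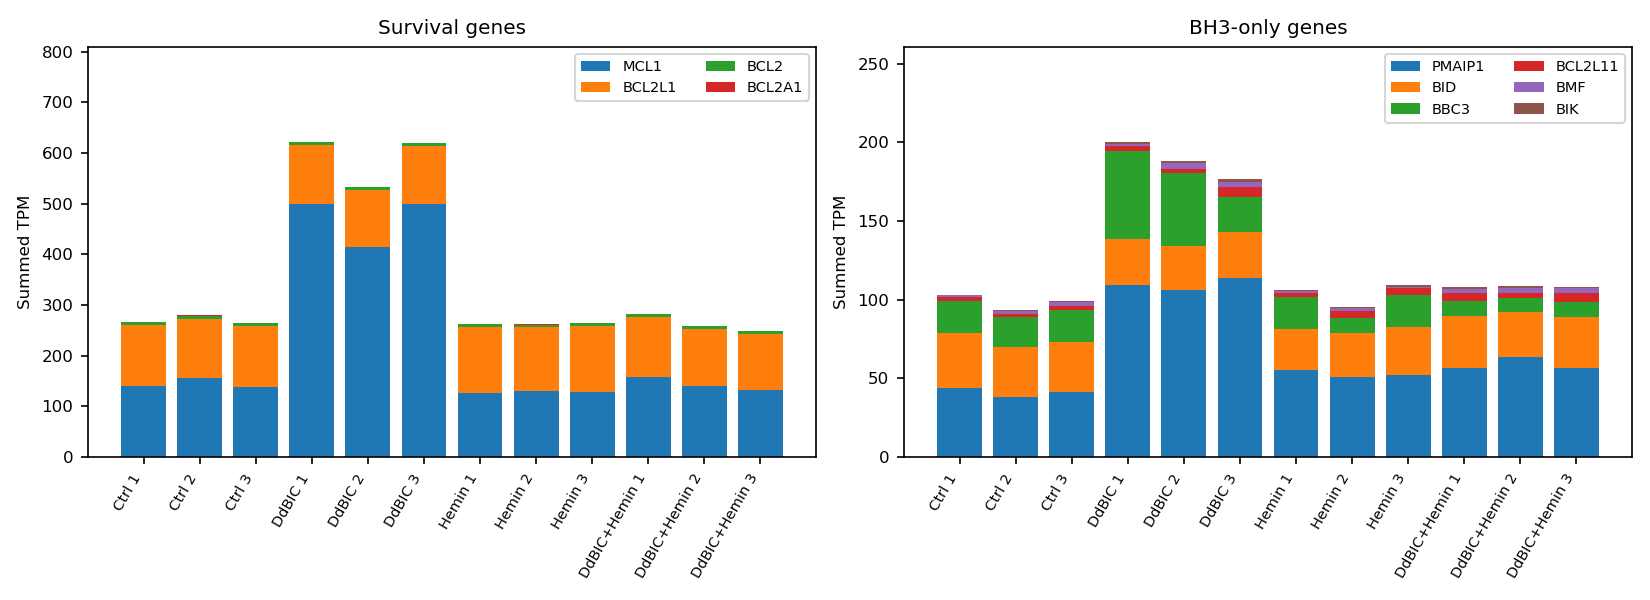
Summed TPM (vertical axes from 0) of the 4 survival genes, left, and the 6 BH3-only genes, right, in each of the 12 libraries, stacked by gene. MCL1 makes up 77.8% to 80.6% of the survival bars in DdBIC and 47.9% to 55.6% elsewhere, and the BH3-only bars of DdBIC are taller mainly through PMAIP1, with BBC3 adding in DdBIC replicates 1 and 2 but little in replicate 3.

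Of the BH3-only genes, PMAIP1 (ENSG00000141682, chromosome 18, 59899948 to 59904306, plus strand) changed in every comparison. NOXA, its product, binds MCL1 and promotes its breakdown. PMAIP1 measured 40.2, 35.0 and 37.8 CPM in Ctrl, 100.1, 98.1 and 103 CPM in DdBIC, 51.3, 47.1 and 48.0 CPM in Hemin and 53.4, 60.3 and 52.5 CPM in DdBIC+Hemin. The order of the groups was Ctrl, Hemin, DdBIC+Hemin, DdBIC, with no overlap between any 2 of them. The log2 fold change was 1.42 ± 0.06 in DdBIC against Ctrl (edgeR adjusted p = 3.38e-08), -0.86 ± 0.06 in DdBIC+Hemin against DdBIC (edgeR adjusted p = 2.45e-06) and 0.56 ± 0.06 in DdBIC+Hemin against Ctrl (edgeR adjusted p = 0.000233). Hemin alone raised it by 0.37 ± 0.06 (edgeR adjusted p = 0.00804). PMAIP1 was the member called higher in Hemin against Ctrl, where 2 of 9 members were called against 4.06% of all genes, and in DdBIC+Hemin against Ctrl, where 2 of 9 were called against 12.4%.

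With hemin added to DdBIC, MCL1 overlapped Ctrl, whereas PMAIP1 stayed above it. The ratio of MCL1 to PMAIP1 TPM was 3.19 to 4.04 in Ctrl, 3.90 to 4.57 in DdBIC, 2.26 to 2.55 in Hemin and 2.21 to 2.77 in DdBIC+Hemin. The 6 libraries with hemin thus had lower ratios than the 6 without.

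The promoter of PMAIP1 is printed because it is the steadiest of the responding BH3-only genes, and that of BBC3 because it responded unevenly. Both are the 250 bases before a RefSeq transcription start (GRCh38.p14, 5′ to 3′ on the gene's strand), and capitals mark a motif found by letters.
PMAIP1, chr18:59899746-59899995, plus strand: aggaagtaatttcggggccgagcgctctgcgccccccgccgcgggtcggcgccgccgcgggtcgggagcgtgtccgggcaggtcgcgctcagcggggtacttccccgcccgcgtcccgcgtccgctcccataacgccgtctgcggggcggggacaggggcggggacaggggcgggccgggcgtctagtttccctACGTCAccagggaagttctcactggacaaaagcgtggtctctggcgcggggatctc
BBC3, chr19:47232668-47232917, minus strand: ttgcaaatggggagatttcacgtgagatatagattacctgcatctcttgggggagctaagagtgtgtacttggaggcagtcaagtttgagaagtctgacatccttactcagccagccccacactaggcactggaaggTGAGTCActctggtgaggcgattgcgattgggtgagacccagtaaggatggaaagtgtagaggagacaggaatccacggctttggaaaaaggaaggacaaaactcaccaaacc
The capitals in PMAIP1 are the CRE half-site (TGACGT, read here as ACGTCA on the other strand), 56 bases before the start, and those in BBC3 the AP-1 motif (TGANTCA), 113 bases before the start. The CRE half-site occurs in 7.10% and the AP-1 motif in 6.57% of 35116 such promoters searched on both strands. The half-site lies within the full CRE (TGACGTCA, in 1.65%) and was added after the sequence had been seen. A match is a description of letters and not evidence of binding.

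The RefSeq promoter table matched 8 of the 10 members, with 14 promoters, and MCL1 and BIK were not matched. Besides these motifs, a site for ATF4 (TGATGNAA, 3.14% of promoters), EGR factors (GCGNGGGCG, 8.41%) and NF-kB (9.96%) were searched. The ATF4 motif stood 63 bases before the start of BCL2A1, the EGR motif 79 bases before that of BCL2L11, and the NF-kB motif 20 bases before 1 start of BMF. The promoters of BCL2, BCL2L1 and BID held none of the letters searched.

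BBC3 (ENSG00000105327, chromosome 19, 47220824 to 47232766, minus strand) encodes PUMA, a broad binder of survival proteins. Its libraries were 16.1, 15.9 and 16.9 CPM in Ctrl, 48.3, 39.5 and 18.5 CPM in DdBIC, 16.7, 7.94 and 16.5 CPM in Hemin and 8.10, 7.80 and 8.003 CPM in DdBIC+Hemin. DdBIC replicate 3 lay close to Ctrl, Hemin replicate 2 lay at the level of DdBIC+Hemin, and the libraries with both agents were below every Ctrl library. The within-group SD was 0.477 on the log2 scale, above 96.2% of 3648 genes of like level. The length behind its FPKM was nearly constant (1.97 to 2.13 kb), and its TPM followed its counts.

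The rise of BBC3 in DdBIC was 1.12 ± 0.35 on the log2 scale (edgeR adjusted p = 0.0315), and was lost without any Ctrl library or without DdBIC replicate 1 or 2 (edgeR adjusted p = 0.076 to 0.111), and also with only the groups compared (0.073), with the replicate block (0.0535) and with limma on TPM (0.0513). Without DdBIC replicate 3, BBC3 stood at 1.42 (edgeR adjusted p = 0.00298). The fall in DdBIC+Hemin against DdBIC was -2.15 ± 0.36 (edgeR adjusted p = 0.00167) and held under all 14 alternatives tried. DdBIC+Hemin against Ctrl gave -1.03 ± 0.36 (edgeR adjusted p = 0.101), which DESeq2 (adjusted p = 0.0395) and a fit of these groups alone (edgeR adjusted p = 0.000397) called lower. Hemin against Ctrl gave -0.25, with an interval of -1.04 to 0.54, and 0.025 without Hemin replicate 2.

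BIK (ENSG00000100290, chromosome 22, 43110748 to 43129712), a BH3-only protein of the endoplasmic reticulum, rested on few reads. Its counts were 6, 11 and 17 in Ctrl, 25, 33 and 39 in DdBIC, 15, 19 and 19 in Hemin and 24, 31 and 21 in DdBIC+Hemin. Every DdBIC library exceeded every Ctrl library. The log2 fold change of 1.46 ± 0.35 (edgeR adjusted p = 0.00712) kept its call in the 13 alternatives that tested the gene, at 1.15 to 1.88. The fall with hemin added was -0.37, with an interval of -1.09 to 0.34 (edgeR adjusted p = 0.432), and DdBIC+Hemin stood 1.09 above Ctrl (0.30 to 1.88, edgeR adjusted p = 0.0753), called without Ctrl replicate 3 (1.51, edgeR adjusted p = 0.0345).

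BID (ENSG00000015475, chromosome 22, 17734138 to 17774665), which caspase-8 cleaves to carry death receptor signals to mitochondria, moved within a narrow range. It stood at 30.3, 27.5 and 29.1 CPM in Ctrl, 27.0, 26.1 and 26.7 CPM in DdBIC, 25.2, 24.2 and 26.1 CPM in Hemin and 27.6, 27.5 and 26.9 CPM in DdBIC+Hemin. Hemin lowered it, with a log2 difference of -0.20 ± 0.05 (edgeR adjusted p = 0.0392), and the DdBIC difference of -0.12 (-0.23 to -0.02) missed the threshold (edgeR adjusted p = 0.0622). The hemin call was lost without Ctrl replicate 1 or 3 or any Hemin library (edgeR adjusted p = 0.0606 to 0.149), and also with no filter (0.0536), only the groups compared (0.112), the replicate block (0.0571) and limma on TPM (0.219). The DdBIC difference was called under upper-quartile scaling (-0.19, edgeR adjusted p = 0.00883), under library totals (-0.15, 0.0369) and without Ctrl replicate 2 (-0.16, 0.0326).

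BCL2L11 (ENSG00000153094, chromosome 2, 111119378 to 111168447) encodes BIM, a strong activator of BAX that is made in several splice forms. It gave 270, 50 and 114 counts in Ctrl, 155, 86 and 519 in DdBIC, 139, 330 and 294 in Hemin and 416, 120 and 450 in DdBIC+Hemin. The groups overlapped throughout, and the highest and lowest of the 12 libraries were DdBIC replicate 3 and Ctrl replicate 2. The DdBIC difference was 0.76, with an interval of -1.06 to 2.58, and no comparison of this gene passed the test.

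BMF (ENSG00000104081, chromosome 15, 40087890 to 40108892), a BH3-only protein tied to the cytoskeleton, gave 79, 118 and 136 counts in Ctrl and 25, 175 and 187 in DdBIC. It gave 72, 91 and 54 counts in Hemin and 157, 170 and 191 in DdBIC+Hemin. The first DdBIC library was the lowest of all 12, and the DdBIC+Hemin libraries were all above Ctrl. The DdBIC difference was 0.16 (-1.03 to 1.35) and that of DdBIC+Hemin against Ctrl 0.57 (-0.61 to 1.75), neither past the test.

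For BCL2L11 and BMF the length that turns counts into FPKM differed between libraries. The implied kb are on a relative scale and not true lengths. For BCL2L11 it ran from 1.90 to 5.64 kb and for BMF from 1.02 to 5.69 kb, ratios of 2.97 and 5.58. Over the 10121 genes that exceeded 200 counts in each library, the median ratio was 1.09 and 1.49% exceeded 2. BCL2L11 and BMF are not among those genes, since they had fewer counts in some or all libraries. BCL2L11 libraries with a long length had the high counts: 5.64 kb went with 270 counts in Ctrl replicate 1 and 1.92 kb with 50 in Ctrl replicate 2. BMF did not show this order. Its longest length, 5.69 kb in Hemin replicate 3, went with 54 counts, and its highest count, 191 in DdBIC+Hemin replicate 3, with 3.42 kb. BMF in DdBIC replicate 1 had 1.02 kb and 25 counts, against 2.93 and 3.22 kb in the other DdBIC libraries. The length is computed from the count, which builds in part of any such relation. GENCODE 29 lists 25 transcripts of BCL2L11 from 0.243 to 5.23 kb and 10 of BMF from 0.45 to 4.69 kb. On TPM, which carries this length, BMF was 1.56, 3.62 and 3.42 in DdBIC against 1.04, 1.71 and 2.23 in Ctrl, a log2 difference of 0.72 (limma, adjusted p = 0.179), and BCL2L11 differed by 0.61 (limma, adjusted p = 0.217). The part of this length in the counts was not tested.

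**Figure D3:**
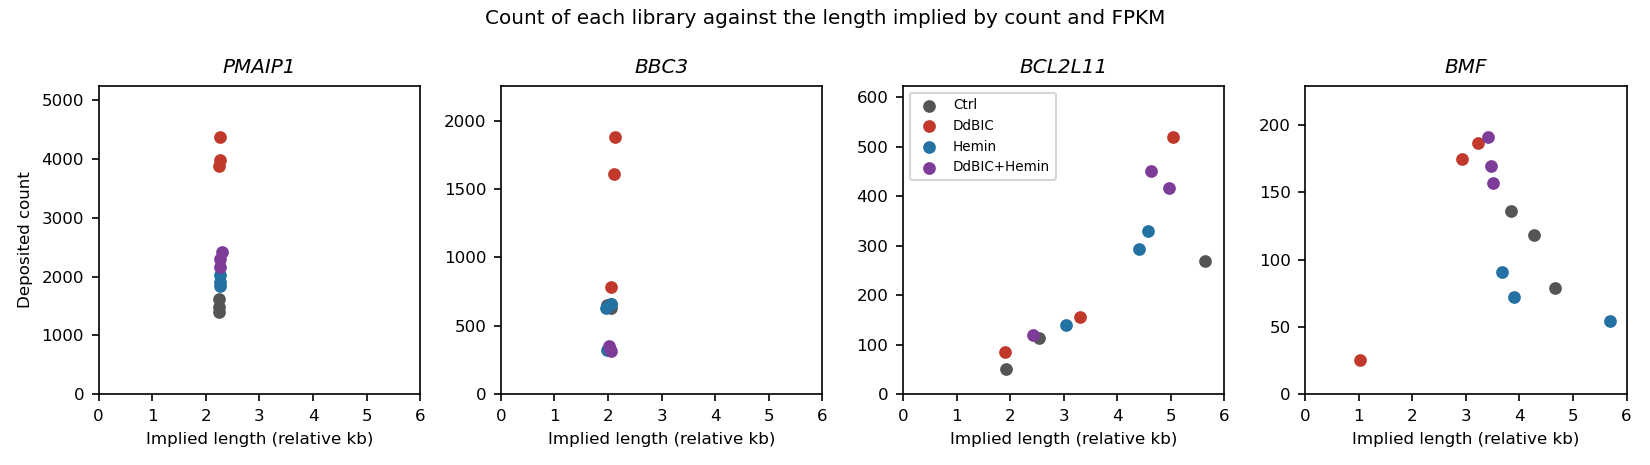
Deposited count (vertical axes from 0, a different scale in each panel) against the length implied by the count and the FPKM (kb on a relative scale), for 4 BH3-only genes in the 12 libraries, coloured by group. PMAIP1 and BBC3 stay at 1 length, whereas BCL2L11 spans 1.90 to 5.64 kb and BMF 1.02 to 5.69 kb.

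Whether hemin altered the response to DdBIC was tested directly, by subtracting the DdBIC effect among libraries lacking hemin from that among libraries given it. It differed for 4 of the 9 members, against 16.6% of all genes. The MCL1 response was 0.18 with hemin (0.01 to 0.35) and 1.72 without, a difference of -1.54 ± 0.11 on the log2 scale (edgeR adjusted p = 7.88e-06). The PMAIP1 response was 0.18 with hemin (0.04 to 0.32) and 1.42 without, a difference of -1.23 ± 0.09 (edgeR adjusted p = 6e-06). Both held under all 19 alternatives.

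For BBC3 the response was -0.78 with hemin (-1.59 to 0.03) and 1.12 without, a difference of -1.90 ± 0.50 (edgeR adjusted p = 0.0302), lost without any 1 library except DdBIC replicate 3 or Hemin replicate 2 (edgeR adjusted p up to 0.0721), and with the replicate block (0.0559). BID went the other way, at 0.12 with hemin and -0.12 without, a difference of 0.24 ± 0.07 (edgeR adjusted p = 0.0303). It was lost without 8 of the 12 libraries: Ctrl replicates 1 and 3, DdBIC replicates 2 and 3, Hemin replicates 1 and 2, and DdBIC+Hemin replicates 1 and 2 (edgeR adjusted p = 0.0509 to 0.0741). It was also lost on log2 TPM (limma, adjusted p = 0.0671). BIK, at 0.45 with hemin and 1.46 without, had a difference of -1.01 whose interval reached 0.07 (edgeR adjusted p = 0.203). BCL2L1 and BCL2 differed by -0.10 and -0.07, neither past the test. Their responses to DdBIC with hemin were -0.16 (-0.23 to -0.10) and -0.14 (-0.28 to -0.005). These intervals are not adjusted for the number of genes.

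**Figure D4:**
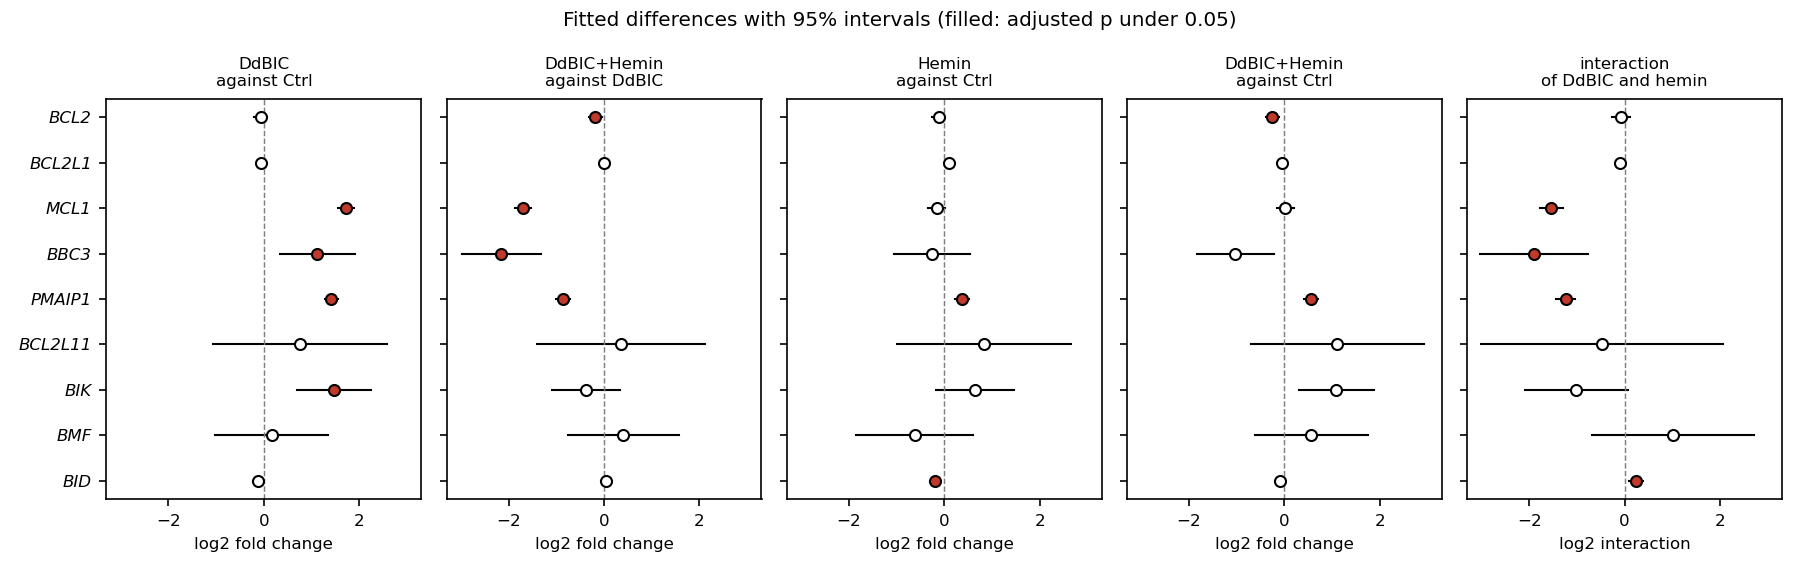
Log2 differences of the 9 tested members with 95% intervals (horizontal bars) in the 5 comparisons, which share libraries; filled points have an adjusted p under 0.05. MCL1, PMAIP1 and BBC3 lie to the right of 0 in DdBIC against Ctrl and to the left in DdBIC+Hemin against DdBIC and in the interaction, while BCL2L11 and BMF have intervals that span 0 in every panel.

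The median log2 fold change over the 9 tested members was 0.76 in DdBIC against Ctrl (the value of BCL2L11, which was not called), -0.19 in DdBIC+Hemin against DdBIC, -0.12 in Hemin against Ctrl and 0.02 in DdBIC+Hemin against Ctrl, beside medians of -0.01, -0.01, 0.00 and 0.00 over all genes tested.

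Among the pore formers and the other family genes, 12 listed and 10 tested, DdBIC raised 1 and lowered 2, against 37.2% of all genes called. BCL2L2, a survival gene, varied too widely to be read (37.7 ± 27.0 CPM in Ctrl, DdBIC difference -0.27 with an interval of -2.96 to 2.42). BAX, a pore former, fell from 159.8 ± 2.9 to 138.5 ± 4.0 CPM (log2 fold change -0.21 ± 0.05, edgeR adjusted p = 0.00566) and BOK, a relative of BAX, from 14.3 to 10.8 CPM (-0.40, edgeR adjusted p = 0.00177). BAK1, the pore former that MCL1 restrains, was at 53.2 CPM in both groups (interval -0.12 to 0.12). BCL2L12, an atypical member, rose by 0.32 (edgeR adjusted p = 0.00131). With hemin added, 3 of the 10 were higher than in DdBIC and 1 lower, against 31.9% of all genes called. BAX at 0.18 and BOK at 0.25 were among the first, and the lower gene was BCL2L12 at -0.26. On log2 TPM the calls of BCL2L12 in DdBIC against Ctrl and of BAX and BOK in DdBIC+Hemin against DdBIC were lost (limma, adjusted p = 0.0783, 0.208 and 0.077). BOK there was also lost without DdBIC replicate 1 or 2 or DdBIC+Hemin replicate 1 or 2 (edgeR adjusted p = 0.0576 to 0.117). The same BOK call was lost with the replicate block (0.0582) and with only the groups compared (0.0571).

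Downstream of the pore, the list of the apoptosome, effector caspases and IAPs (inhibitors of apoptosis) had 3 of 11 genes higher and 1 lower in DdBIC, near the 37.2% called over all genes. The total of 4 called was 2 without Ctrl replicate 1 or without DdBIC replicate 2. BIRC3, an IAP and NF-kB target, rose from 0.960 ± 0.275 to 36.5 ± 4.1 CPM, 37.9-fold (edgeR adjusted p = 1.36e-08), and was 2.82 CPM with both agents. BIRC2, a related IAP, rose by 0.57 (edgeR adjusted p = 0.0289). This call was lost without Ctrl replicate 1 or 2 or any DdBIC library (0.0622 to 0.1) and with only the groups compared (0.113). APAF1, the scaffold of the apoptosome, was lower by 0.24 (log2 fold change -0.24, edgeR adjusted p = 0.015). This call was lost without Ctrl replicate 1 or DdBIC replicate 2 (0.0645 and 0.0533) and on log2 TPM (-0.20, limma, adjusted p = 0.106). With hemin added, 4 of the 11 were lower than in DdBIC, against 31.9% of all genes called, BIRC3 by -3.69 and BIRC2 by -0.78.

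Of the 10 death receptor genes upstream of BID, DdBIC raised 3 and lowered 1, near the 37.2% called over all genes. TNFRSF10B, the TRAIL receptor DR5, rose from 118.6 to 189.7 CPM (log2 fold change 0.68 ± 0.05, edgeR adjusted p = 1.12e-06) and stood at 138.9 CPM with both agents. RIPK1, a receptor-bound kinase, rose by 0.28. With hemin added, these 2 were lower than in DdBIC, at -0.45 and -0.20, and TNFRSF1A, a TNF receptor, was higher at 0.12. The TNFRSF1A call was lost without DdBIC replicate 1 or 3 or DdBIC+Hemin replicate 3 (edgeR adjusted p = 0.0551 to 0.0617). It was also lost with only the groups compared (0.0549) and on log2 TPM (0.08, limma, adjusted p = 0.106). TRADD, an adaptor, was lower in DdBIC than in Ctrl at -0.40 (edgeR adjusted p = 0.0214), a call lost without Ctrl replicate 2 or 3 or DdBIC replicate 2 or 3 (0.0532 to 0.0767). Of the 6 tested genes of MCL1 protein turnover, 3 were called in DdBIC against Ctrl, beside 37.2% of all genes. FBXW7, a subunit of a ubiquitin ligase for MCL1, rose by 0.43 (edgeR adjusted p = 0.000331), and CDK5 and USP13, a deubiquitinase, were at -0.29 and -0.24, both called lower. With hemin added, 2 of the 6 were called against DdBIC, beside 31.9% of all genes, FBXW7 lower at -0.47 and CDK5 higher at 0.26.

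Among 13 tested transcription factors known to act on members, DdBIC raised 8, against 37.2% of all genes called in either direction. JUN, an AP-1 subunit, rose from 40.9 ± 1.6 to 1998 ± 262 CPM, 48.9-fold (edgeR adjusted p = 2.59e-10), and was 161.5 CPM with both agents. ATF3 rose from 7.88 to 169.3 CPM and DDIT3 (CHOP) from 12.8 to 123.1 CPM, log2 fold changes of 4.42 and 3.27. ATF4, which drives the integrated stress response and acts on PMAIP1, rose by 0.67, and NFKB1, an NF-kB subunit, by 0.64. RELA (0.18, edgeR adjusted p = 0.053, and 0.0456 with DESeq2) and MITF (0.23, interval -0.28 to 0.74) did not pass this test. With hemin added, 6 of the 13 were lower than in DdBIC, against 31.9% of all genes called in either direction. These included JUN at -3.63, ATF3 at -2.69, DDIT3 at -2.35, NFKB1 at -0.54 and ATF4 at -0.25, the last of which was lost on log2 TPM (-0.03, limma, adjusted p = 0.835). MITF was at -0.64 there (edgeR adjusted p = 0.0598), and was called by DESeq2, with the replicate block, on log2 TPM, and without DdBIC or DdBIC+Hemin replicate 3 (adjusted p = 0.016 to 0.0496).

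Between Hemin and Ctrl, 1 of the 10 other family genes, 1 of the 11 genes of the apoptosome list and 3 of the 13 transcription factors passed the test, against 4.06% of all genes. None of the 10 death receptor genes and none of the 6 tested genes of MCL1 protein turnover passed it. JUN was higher by 0.72 (edgeR adjusted p = 0.00225), BNIP3L, a mitophagy receptor, lower at -0.24 (edgeR adjusted p = 0.00644), and ATF4 at 0.14 and APAF1 at -0.30 were called in the full fit but lost without any 1 of the 6 libraries (edgeR adjusted p = 0.0547 to 0.111). ATF4 and APAF1 were also lost with the replicate block (edgeR adjusted p = 0.0631 and 0.0686) and on log2 TPM (0.03 and -0.38, limma, adjusted p = 0.936 and 0.053). STAT3, named after its values were seen, was at 0.13 (edgeR adjusted p = 0.0275). This call too was lost without any 1 of the 6 libraries (edgeR adjusted p = 0.0537 to 0.119) and with the replicate block (0.0569). With both agents, JUN (1.98), BIRC3 (1.55), ATF4 (0.42, edgeR adjusted p = 8.54e-06) and TNFRSF10B (0.23) were above Ctrl, and APAF1 stood at -0.41. ATF3 was at 1.74 there, a call lost without Ctrl replicate 2 or 3 (edgeR adjusted p = 0.0557 and 0.0531). BCL2L13, USP13 and USP9X were called with log2 fold changes of 0.15, -0.20 and -0.16. These calls were lost without Ctrl replicate 3 (edgeR adjusted p = 0.0828, 0.0655 and 0.0973) and with only the groups compared (0.0772, 0.0599 and 0.0703). USP9X was lost too with the replicate block (0.0669) and without Ctrl replicate 1 or DdBIC+Hemin replicate 1 or 3 (0.0979 to 0.107). BCL2L13 was lost too without Ctrl replicate 2 or DdBIC+Hemin replicate 1 (0.0652 and 0.0847) and under library totals (0.0535). On log2 TPM, BCL2L13 and USP13 were lost (limma, adjusted p = 0.121 and 0.0851). The response to DdBIC differed with hemin for JUN (-4.35), BIRC3 (-3.67), ATF3 (-3.01), DDIT3 (-2.88), TNFRSF10B (-0.58), NFKB1 (-0.50), FBXW7 (-0.45), ATF4 (-0.40), BCL2L12 (-0.35), XIAP, an inhibitor of caspases (-0.32), and CDK5 (0.29), all called by edgeR. On log2 TPM the calls of ATF4 (-0.06, limma, adjusted p = 0.832) and BCL2L12 (-0.22, limma, adjusted p = 0.12) were lost. BNIP3L was called at 0.21, and lost on log2 TPM (limma, adjusted p = 0.0773) and without Ctrl replicate 1 or 2, DdBIC replicate 1, Hemin replicate 1 or 3, or DdBIC+Hemin replicate 1 (edgeR adjusted p = 0.05 to 0.0575).

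**Figure D5:**
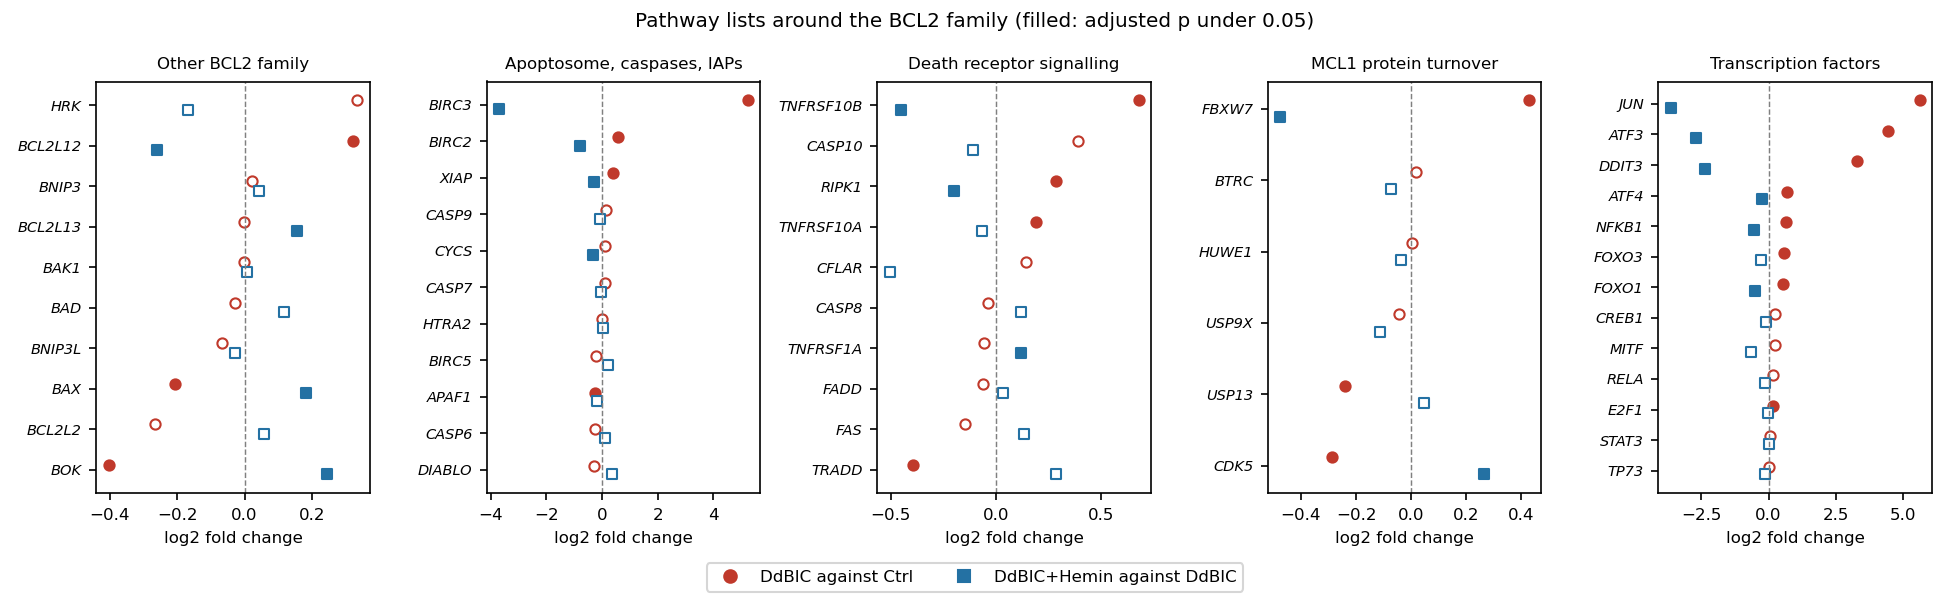
Log2 fold changes (horizontal axes, a different scale in each panel) of the tested genes of 5 lists around the BCL2 family, as circles for DdBIC against Ctrl and squares for DdBIC+Hemin against DdBIC, filled where the adjusted p is under 0.05. The 2 comparisons share the DdBIC libraries. BIRC3, JUN, ATF3 and DDIT3 lie farthest from 0, and BAX and BAK1 lie within 0.21 of it.

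The genes whose log2 CPM followed a member most closely over the 12 libraries were found for the 3 members with the largest called change in DdBIC against Ctrl, as a description, since all 12 share the treatment groups. For MCL1 they were TNFAIP2, NFKB2 and EFNA1, with Pearson correlations of 0.997, 0.996 and 0.994 among 10677 genes. NFKB2, an NF-kB subunit, went from 96.7 CPM in Ctrl to 247.6 CPM in DdBIC. For PMAIP1 they were GRPEL2, RCAN1 and EAF1, at 0.988, 0.987 and 0.986. RCAN1, a calcineurin regulator, went from 101.8 to 280.8 CPM. For BIK, with its few counts, the highest were TMEM87A at 0.944, USP25 at 0.927 and SOCS4 at 0.922.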

How the data were processed

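Total RNA of 12 A375 samples was sequenced (Trizol extraction). The submitters' processing notes name Trim Galore, Subread, featureCounts and hg38, whose versions and use of strand are not given in the sources used here. The authors deposited for each library a count of reads per gene, not normalized, a TPM value (scaled by length and to one sum) and an FPKM value (scaled by length and depth). In GENCODE 29 noncoding genes overlap BCL2, BCL2L1, BCL2L11 and BMF on the opposite strand and MCL1 and BCL2 on the same strand, and miRNA genes overlap BBC3 and BID, so reads may have been shared.

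Groups came from the treatment labels. Counts were filtered with filterByExpr (14287 of 20263 genes), TMM-scaled and tested with the quasi-likelihood F test of edgeR 4.0.16 in R 4.3.3 (robust, 1 mean per group over 12 libraries, 8 residual degrees of freedom), with Benjamini-Hochberg adjustment and a threshold of 0.05. SE was obtained by dividing the size of the log2 fold change by the square root of F. Length behind FPKM was the count divided by FPKM and the library total, a relative scale in kb whose absolute values are not true lengths. The paper's methods name no test of single genes for these data, and its results report a gene set enrichment analysis of them. Steps were tested on simulated data.

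The members, lists and tests were chosen with earlier results of these data known. Named were all members, up to 2 genes per direction, list and comparison with the largest called change, a set of BAX, BAK1, DDIT3, ATF4, RELA, NFKB1 and MITF, HMOX1, and 3 genes per member for likeness (minimum mean of 5 CPM, prior count 2). A few genes were taken out of the lists after the fit, for a reason that did not depend on their values, and are not reported here, so list counts cover the remaining genes only. Same replicate numbers did not pair the libraries (correlations of deviations -0.0462 to 0.081 over 18 pairs). Alternatives were DESeq2 1.42.0, upper-quartile scaling, library totals, no filter, at least 10 counts in every library, a fit of the compared groups alone, a block for replicate number, omission of single libraries, a minimum absolute log2 fold change of 1 and, added after the data were seen, limma 3.58.1 with a trend on log2(TPM + 0.1).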

Additional observations from a re-analysis of the deposited data

Results flagged for a closer look

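The response to DdBIC with hemin differed from that without by the test of the difference itself for 4 members. The differences on the log2 scale were -1.54 for MCL1 (edgeR adjusted p = 7.88e-06), -1.90 for BBC3 (edgeR adjusted p = 0.0302), -1.23 for PMAIP1 (edgeR adjusted p = 6e-06) and 0.24 for BID (edgeR adjusted p = 0.0303). The calls of BBC3 and BID were lost in 10 and 8 of the 12 omissions of a single library, and that of BBC3 also with the replicate block (edgeR adjusted p = 0.0559). Groups of 3 libraries were too small to be screened for single outlying libraries.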

How the results depend on the processing

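Over all member values and alternatives, 593 kept direction and side of the threshold, 52 lost a call, 8 gained one and 15 changed sign. The calls of MCL1 and PMAIP1 kept direction and threshold in every alternative run, except that a minimum absolute log2 fold change of 1 ended those of PMAIP1 in DdBIC+Hemin against DdBIC, Hemin against Ctrl and DdBIC+Hemin against Ctrl. Hemin against Ctrl gave 1 member in place of 2 with no filter, with only the groups compared, with the replicate block and with limma on TPM, and 0 with a minimum absolute log2 fold change of 1. That minimum left 2 members in DdBIC+Hemin against DdBIC and 0 in DdBIC+Hemin against Ctrl. Leaving out single libraries gave 1 to 2 members in Hemin against Ctrl, 1 to 2 in DdBIC+Hemin against Ctrl and 2 to 3 in the interaction. Among the members, the replicate block, with numbers shared by label only, ended the calls of BBC3 in DdBIC against Ctrl (1.08, edgeR adjusted p = 0.0535) and in the interaction (-1.84, 0.0559), and of BID in Hemin against Ctrl (-0.20, 0.0571). Upper-quartile scaling moved the share of higher calls among all genes from 53.8% to 40.0% in DdBIC against Ctrl, from 42.4% to 59.2% in DdBIC+Hemin against DdBIC and from 38.5% to 55.4% in the interaction, and library totals moved it from 45.6% to 34.4% in DdBIC+Hemin against Ctrl. A minimum absolute log2 fold change of 1 left 502, 323, 16, 82 and 278 of the 5310, 4559, 580, 1771 and 2376 genes called in the 5 comparisons. In Hemin against Ctrl, leaving out single libraries gave 272 to 373 genes and DESeq2 gave 881, beside 580 in the main fit.

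Of the values of the named list genes, 861 kept direction and side of the threshold, 80 lost a call, 7 gained one and 8 changed sign. Signs changed only for values not called. In DdBIC against Ctrl, leaving out single libraries gave -0.25 to 1.55 for BCL2L11, -0.18 to 0.64 for BMF and -0.040 to 0.035 for BAK1. BAK1 was 0.00066 with at least 10 counts in every library and 0.0011 with the replicate block. In DdBIC+Hemin against DdBIC the same ranges were -0.017 to 0.019 for BCL2L1, -0.053 to 1.37 for BCL2L11, -0.070 to 0.75 for BMF and -0.034 to 0.053 for BAK1, and limma on TPM gave -0.0011 for BCL2L1 and -0.024 for BAK1. BBC3 in Hemin against Ctrl ran from -0.42 to 0.025. MCL1 in DdBIC+Hemin against Ctrl ran from -0.043 to 0.072, with -0.0015 under library totals and -0.015 on TPM. In the interaction BCL2 was 0.0067 on TPM and BCL2L11 ran from -1.27 to 0.54. The cause of these changes was not tested. Depth limits BCL2A1 and BIK.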
